A study of Mus musculus with 8 samples.

Results

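The transcriptome of mouse embryonic stem cells (mESCs) treated with morphine was compared with that of untreated mESCs, gene by gene and by function. Members were all loci of the deposited count table that carry a gene name and hold 10 or more counts in at least 2 of the 4 RNA-Seq libraries, which gave 17691 of 44396 loci, and of 40846 loci with a name. These 17691 loci carry 15134 distinct names, since some genes are split over several assembled loci. The control group was 2 libraries of Oct4-GFP mESCs grown for 24 h with the vehicle, 0.9% NaCl, and the morphine group was 2 libraries of the same cells grown for 24 h with 10 µM morphine. All cells carry the Oct4-GFP reporter, were kept on gelatin without feeder cells, and per the study's methods were held in LIF and the 2i inhibitors, which block ERK signalling and activate the Wnt pathway. They were 1 line in culture, and nothing in the labels says that the 2 libraries of a group came from separate cultures, so p-values measure only the spread between these libraries, which may be technical. The same series holds H3K27me3 ChIP-Seq libraries of these conditions, which were not used here.

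Morphine acts on opioid receptors, which are coupled to inhibitory G proteins and lower cyclic AMP in neurons. Cholesterol synthesis is set by SREBP transcription factors: when sterol in the endoplasmic reticulum is low, SCAP carries SREBP to the Golgi, where it is cleaved, and the freed fragment turns on the enzymes of the mevalonate pathway and of fatty acid synthesis. Ribosomal proteins, spliceosome proteins and chromatin regulators are expressed at high level in proliferating mESCs, and SR proteins and their CLK kinases set exon choice in part through their own alternatively spliced mRNAs.

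Library totals ran from 25081266 to 29531096 counts, lowest in morphine replicate 1, and members held 97.5 to 98.0% of them. All 9 ES cell markers (Pou5f1, Sox2, Nanog and others) were members, with a summed level of 5190 to 5243 CPM (counts scaled to a common TMM-normalized library size) in the controls and 5277 to 5432 CPM after morphine, and none passed the edgeR test described below. DESeq2 called Pou5f1 higher (adjusted p 0.003). Of 8 fibroblast markers 4 were members and 1, Dcn, was at 0 in all libraries. Their summed level was 18.1 to 18.6 CPM in the controls and 18.9 to 20.6 CPM after morphine. Primitive endoderm, trophectoderm, mesoderm, neural, primed-state and 2-cell-like markers summed to at most 42.4 CPM in any library, and none of them passed in edgeR. In bulk RNA, fewer cells of a type and less RNA per cell cannot be told apart.

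The receptors of morphine were close to the limit of detection. Oprm1, the mu receptor, had 0 counts in all 4 libraries at each of its 30 loci, Oprd1, the delta receptor, had 9 and 4 counts in the controls and 2 and 2 after morphine, and Oprk1, the kappa receptor, had 7 and 9 against 4 and 8. Oprl1, the nociceptin receptor, which morphine does not bind well, was the only member among them, with 20 and 29 counts in the controls and 19 and 23 after morphine. The groups overlap for Oprk1 and Oprl1, and at these counts a difference was not detectable. A count of 0 allows up to 3 counts per library, and this limit covers counting error only.

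Of the 17691 members 17526 held enough counts for the test. edgeR's quasi-likelihood test with Benjamini-Hochberg adjustment over all 20350 tested loci called 274 members at an FDR of 0.05 (1.56% of those tested), 118 higher after morphine (0.673%) and 156 lower (0.89%). DESeq2, which gave an adjusted p to 6052 of them, called 641 (10.6%), 259 higher (4.28%) and 382 lower (6.31%). The DESeq2 counts given below for single lists leave out genes without an adjusted p, so a 0 there can include genes it did not evaluate. At an unadjusted p under 0.05 stood 3716 of the 17526 (21.2%), against which the counts at that level in single lists are to be read. Below, called, passed and adjusted p refer to the edgeR fit unless another fit is named. Of the calls, 22 higher and 38 lower stood at loci that overlap another locus, so that reads may be shared. Not all of these are marked where they are named below. The changes were small: 104 of the 118 higher and 139 of the 156 lower members changed by less than 1.5-fold, and the median log2 fold change (morphine over control) was 0.31 in the first group and -0.33 in the second, against 0.0049 over all tested members. The morphine libraries lay above both control libraries for 4807 tested members (27.4%) and below both for 4747 (27.1%). With scaling by total counts in place of TMM the split turned from 118 higher and 156 lower to 263 higher and 200 lower. The number of calls varied with single libraries: without morphine replicate 1 only 6 members passed (Rps23, Ttc14, Rpl30, Fasn, Ndufs5 and Aacs, listed after their values were seen), and without control replicate 2 there were 1362. With 3 libraries left the fit has 1 residual degree of freedom, the lone library of a group is assumed to vary like the other group, and a lost call does not show that the change was smaller.

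Across genes, the change after morphine followed base composition. The log2 fold change rose with the GC content of the exons (Spearman's rho 0.52 over 17518 tested members with a GC value) and fell with the summed exon length (rho -0.21), given as a description since genes share libraries. In the tenth of members with the lowest GC content, 26.7 to 41.9%, the median log2 fold change was -0.17, with 1 member called higher and 84 lower. In the tenth with the highest, 58.2 to 82.9%, it was 0.17, with 45 called higher and 1 lower. Members called higher had a median GC content of 56.8%, those called lower 41.4%, and all tested members 50.3%. The median exon length was 2858 bp for those called higher and 6356 bp for those called lower. Libraries of the same condition also differed along GC content: rho was -0.18 for control replicate 1 over control replicate 2 and 0.33 for morphine replicate 1 over morphine replicate 2, while the 4 comparisons of a morphine with a control library gave 0.33 to 0.53. Whether the trend comes from library preparation or from the cells was not tested, and with these groups the trend and the treatment cannot be told apart. For this reason calls and list medians were also computed after a smooth trend with GC content and exon length had been fitted in each library and removed (the GC and length offset). With the offset 81 members were called (0.462%), 55 higher (0.314%) and 26 lower (0.148%), and 59 of them were among the 274, which is 21.5% of the calls without and 72.8% of the calls with the offset.

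**Figure D1:**
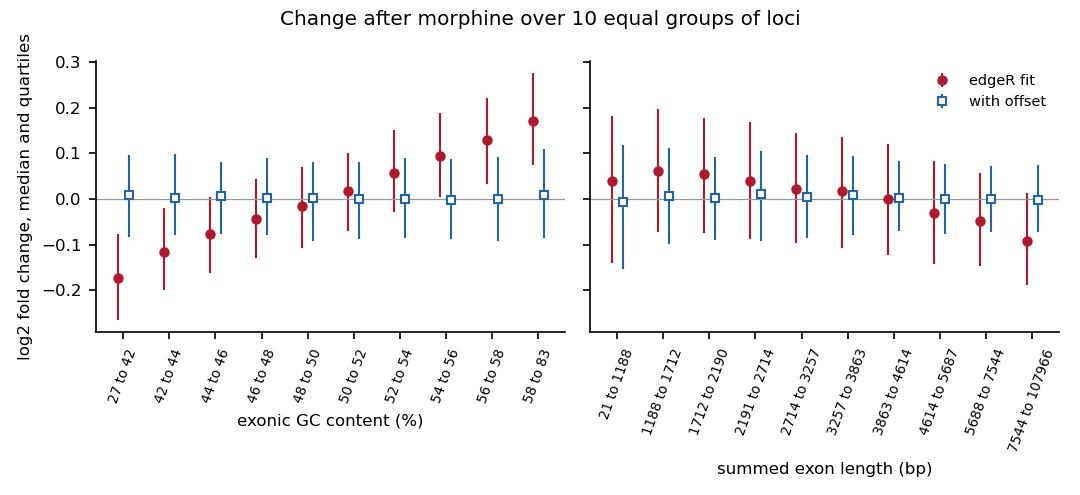
Median log2 fold change of morphine over control (points) with the quartiles (bars) for 10 equal groups of tested members, ordered by exonic GC content in percent (left) or summed exon length in bp (right), from the edgeR fit (filled) and with the GC and length offset (open). The medians climb from -0.17 to 0.17 along GC content, drop to -0.09 in the longest group, and lie near 0 throughout with the offset.

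Gene lists of 50 functions were described by how many genes were called and by their median log2 fold change. Among 47 lists with 10 or more tested genes, the list median followed the median GC content of the list (rho 0.80), and with the offset much less (rho 0.12). The number of lists with a median beyond 0.1 in size dropped from 10 to 2 with the offset, and these were cholesterol synthesis and fatty acid synthesis.

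**Figure D2:**
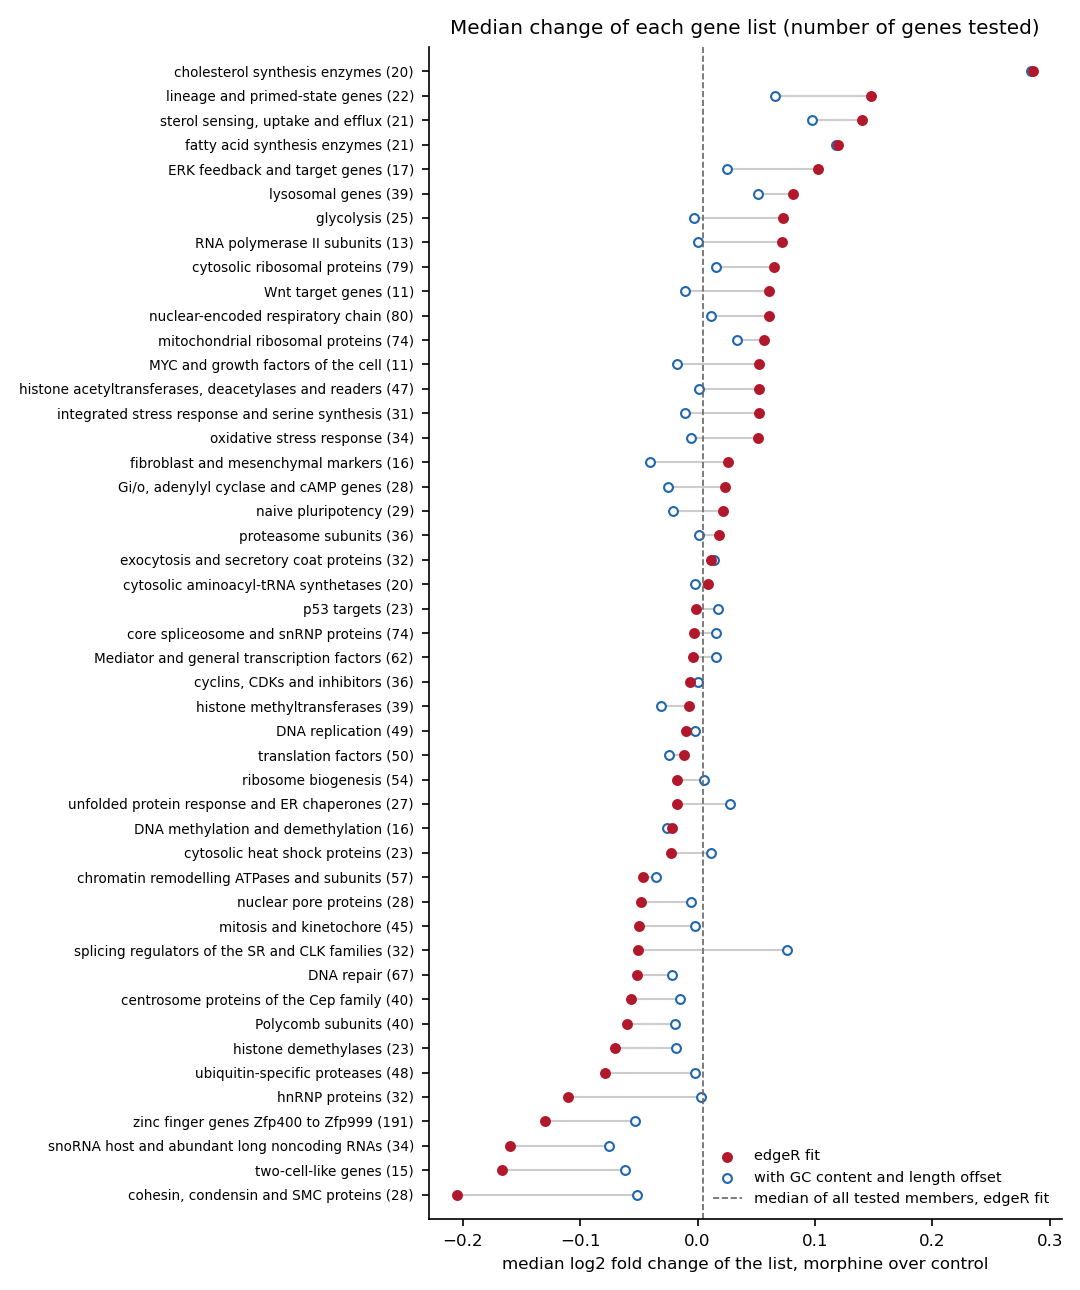
Median log2 fold change of each gene list with 10 or more tested genes (number in brackets), from the edgeR fit (filled) and with the GC and length offset (open); the dashed line is the median of all tested members. Cholesterol synthesis enzymes stand at 0.29 in the first and 0.28 in the second, while cohesin, condensin and SMC proteins move from -0.20 to -0.051.

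**Figure D3:**
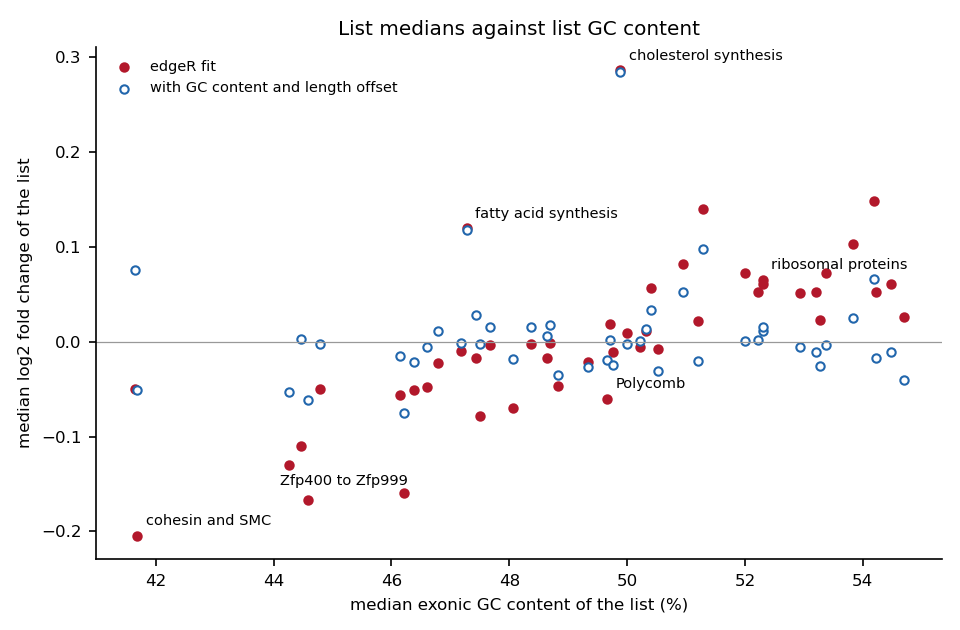
Median log2 fold change of each of the 47 lists against the median exonic GC content of its genes in percent, from the edgeR fit (filled) and with the GC and length offset (open). Filled points climb with GC content, and the cholesterol synthesis list, at a GC content of 49.9%, lies apart from the others at its GC content under both.

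Most enzymes of cholesterol synthesis rose. Of 20 enzymes 15 were called higher and 0 lower, and their median log2 fold change was 0.29 (SD between libraries of a group 0.0094). The summed level of the 20 was 2729 and 2733 CPM in the controls and 3351 and 3392 CPM after morphine. For 18 of the 20 both morphine libraries lay above both controls. The median GC content of the list, 49.9%, is near that of all members, and with the offset the count was again 15 higher and 0 lower, with a median of 0.28. Leaving out morphine replicate 1 left 0 of 20 past the threshold (lowest adjusted p 0.0502) and leaving out morphine replicate 2 left 9, while 19 and 18 of the 20 fitted changes stayed above 0.

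SREBP binds sterol regulatory letters near the start of these genes, next to CCAAT boxes read by the factor NF-Y. RefSeq promoter windows (GRCm38.p6, 250 bases before to 50 after the start of transcription) were at hand for 15 of the 20 genes. They are shown for the 4 called enzymes of lowest p that have one, and for Hmgcs1, the only gene of the list whose window holds the sterol regulatory letters TCACNCCAC on either strand. Pmvk has 2 windows and Dhcr7 has 3, and for each the window with the most matches was printed, so the marked letters there follow from that choice. Capitals mark CCAAT (written ATTGG where it lies on the other strand) and, in Hmgcs1, the sterol letters, which do not overlap a CCAAT.
Mvd, chr8:122443373-122443672 (minus strand): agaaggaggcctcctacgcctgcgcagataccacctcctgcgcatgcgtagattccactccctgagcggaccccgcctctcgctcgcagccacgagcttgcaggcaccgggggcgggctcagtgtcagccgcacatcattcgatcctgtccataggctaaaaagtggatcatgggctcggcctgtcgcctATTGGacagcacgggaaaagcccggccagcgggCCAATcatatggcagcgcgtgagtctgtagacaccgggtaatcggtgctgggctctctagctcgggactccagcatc
Lss, chr10:76531355-76531654 (plus strand): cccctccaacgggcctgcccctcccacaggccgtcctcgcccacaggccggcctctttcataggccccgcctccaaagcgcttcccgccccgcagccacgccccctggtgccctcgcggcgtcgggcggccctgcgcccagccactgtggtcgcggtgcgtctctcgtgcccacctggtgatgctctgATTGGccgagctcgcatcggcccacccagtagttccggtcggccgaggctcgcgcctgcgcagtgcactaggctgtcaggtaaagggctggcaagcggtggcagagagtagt
Pmvk, chr3:89454291-89454590 (plus strand): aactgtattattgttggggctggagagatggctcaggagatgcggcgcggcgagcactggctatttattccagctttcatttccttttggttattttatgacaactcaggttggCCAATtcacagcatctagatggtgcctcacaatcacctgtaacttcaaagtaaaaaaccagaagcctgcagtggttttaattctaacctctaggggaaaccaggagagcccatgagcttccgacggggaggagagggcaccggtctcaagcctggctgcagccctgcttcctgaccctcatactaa
Dhcr7, chr7:143829964-143830263 (plus strand): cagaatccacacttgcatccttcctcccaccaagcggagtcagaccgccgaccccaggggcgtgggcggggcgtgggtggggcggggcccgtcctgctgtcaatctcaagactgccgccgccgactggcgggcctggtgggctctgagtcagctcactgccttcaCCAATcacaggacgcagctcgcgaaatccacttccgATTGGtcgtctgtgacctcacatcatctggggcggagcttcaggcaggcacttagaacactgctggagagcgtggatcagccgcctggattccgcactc
Hmgcs1, chr13:119690101-119690400 (plus strand): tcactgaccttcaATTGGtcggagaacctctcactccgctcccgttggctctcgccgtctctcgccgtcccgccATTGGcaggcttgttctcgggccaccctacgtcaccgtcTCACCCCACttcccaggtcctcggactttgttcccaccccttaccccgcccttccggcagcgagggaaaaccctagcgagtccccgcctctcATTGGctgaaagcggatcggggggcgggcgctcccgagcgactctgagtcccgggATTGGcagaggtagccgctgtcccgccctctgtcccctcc
CCAAT on either strand was in at least 1 window of 14 of the 15 genes (93.3%), against 41.1% of all 27025 genes with a window and 42.9% of member genes. Counted by window it was in 14 of 18 (77.8%), against 37.4% of all windows and 37.7% of those of members. The sterol letters were in 1 of 15 (6.67%), against 1.44% of all genes and 1.48% of member genes. The full cyclic AMP response element TGACGTCA was in 0 of 15 genes, against 2.03% of all genes and 3.53% of member genes, and the ATF4 letters TGATGNAAT in 0 of 15, against 1.08% and 0.622%. The E-box CACGTG was in 3 of 15 (20%), against 8.09% of all and 11.6% of member genes. The antioxidant response letters TGACNNNGC were in 4 of 15 (26.7%), against 14% and 16.8%. The TATA box TATAAA was in 0 of 15, against 15.7% and 8.72%. These are matches of letters in a short window and not binding sites.

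Along the pathway, the early steps were measured first. Hmgcs1, which makes HMG-CoA, was at 441 and 428 CPM in the control libraries and 488 and 512 CPM in the morphine libraries (log2 fold change 0.20 ± 0.044, SE, adjusted p 0.048). Both morphine libraries exceeded both controls, and the gene is poorer in GC than the average member, so that the offset raised its change to 0.33. Acat2, which joins acetyl-CoA units, also rose, at 106 and 100.3 CPM against 125 and 121 CPM (adjusted p 0.042).

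The kinases and the decarboxylase that follow all rose. Mvk, mevalonate kinase, was at 42.8 and 44.9 CPM in the control libraries and 58.9 and 57.4 CPM in the morphine libraries. Pmvk, phosphomevalonate kinase, was at 46.5 and 47.9 CPM in the control libraries and 72.5 and 68.6 CPM in the morphine libraries. Mvd, mevalonate diphosphate decarboxylase, was at 75.8 and 80.2 CPM in the control libraries and 122 and 116 CPM in the morphine libraries. Their log2 fold changes were 0.41 ± 0.059, 0.58 ± 0.058 and 0.61 ± 0.055, or 1.33-, 1.49- and 1.53-fold, with adjusted p 0.012, 0.001 and 6.2e-04 in edgeR's quasi-likelihood test. All 3 are GC-rich, and with the offset the changes were 0.29, 0.47 and 0.44, each still called. Without the offset Mvd and Pmvk had the largest changes of the pathway, and with it Lss had.

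Fdps, which makes farnesyl diphosphate, was at 113 and 122 CPM in the control libraries and 167 and 158 CPM in the morphine libraries (0.47 ± 0.056, adjusted p 0.0041). Fdft1, squalene synthase, was at 179.6 and 178 CPM in the control libraries and 221 and 222 CPM in the morphine libraries (0.31 ± 0.045, adjusted p 0.012). Sqle, squalene epoxidase, was at 218 and 220.4 CPM in the control libraries and 257 and 263 CPM in the morphine libraries (0.25 ± 0.045, adjusted p 0.03). In each of these the groups were apart, by more than the libraries of a group differed, and each was called with the offset as well, with changes of 0.37, 0.28 and 0.25. Lss, which closes the sterol rings, was at 128 and 133 CPM in the control libraries and 185 and 182 CPM in the morphine libraries, a 1.41-fold change with adjusted p 9.1e-04, and the offset left it at 0.54 on the log2 scale.

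Of the enzymes that turn lanosterol into cholesterol, Cyp51, Tm7sf2, Msmo1 and Dhcr7 were among those called. Dhcr7, the last step of one branch, was at 76.1 and 79.9 CPM in the control libraries and 105 and 106 CPM in the morphine libraries (0.43 ± 0.053, adjusted p 0.0048). Cyp51, Tm7sf2 and Msmo1 had log2 fold changes of 0.27 ± 0.046, 0.31 ± 0.054 and 0.30 ± 0.044. With the offset Tm7sf2 was no longer called (adjusted p 0.052) and Nsdhl was. The list members that edgeR did not call were Idi1, Nsdhl, Hsd17b7, Ebp and Sc5d, named here after their values were seen. Of these DESeq2 called Nsdhl (adjusted p 0.045). Nsdhl was at 71.5 and 76.9 CPM in the control libraries and 84.8 and 86.8 CPM in the morphine libraries (adjusted p 0.077), Ebp at 36.3 and 35.6 CPM against 41.2 and 43.2 CPM (adjusted p 0.075) and Hsd17b7 at 32.2 and 32.5 CPM against 35.3 and 35.8 CPM (adjusted p 0.25), all with the groups apart. For Idi1, at 16 and 16.8 CPM against 15.3 and 16 CPM, and Sc5d, at 44.3 and 42.8 CPM against 43.3 and 47.7 CPM, the adjusted p was 0.71 and 0.63. The groups overlapped for Idi1 and for Sc5d.

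**Figure D4:**
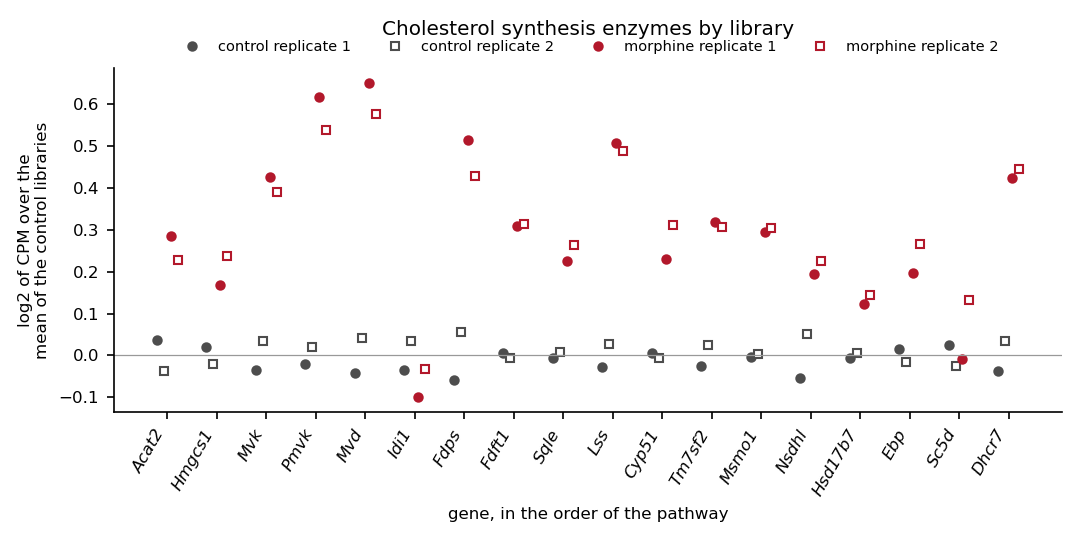
Level of 18 of the 20 cholesterol synthesis enzymes in each library, as log2 of its CPM over the mean of the 2 control libraries, in the order of the pathway; circles are replicate 1 and squares replicate 2, grey is control and red morphine. Both morphine libraries lie above both controls in 16 of the 18 drawn, and Idi1 and Sc5d are the exceptions.

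In the list of sterol sensing, uptake and efflux, 5 of 21 genes were called higher and 0 lower (median 0.14, SD between libraries of a group 0.049, with the offset 0.10 and 2 called). Without morphine replicate 1 the median was 0.077 with 0 called, and without morphine replicate 2 it was 0.17 with 1 called. Of the 5, Insig1, which holds SCAP in the endoplasmic reticulum when sterol is high, was at 81.4 and 75.3 CPM in the control libraries and 93.8 and 96.7 CPM in the morphine libraries (0.28 ± 0.057, adjusted p 0.041). Srebf1, which encodes SREBP-1, was at 157 and 166 CPM in the control libraries and 200.2 and 191 CPM in the morphine libraries (0.27 ± 0.051, adjusted p 0.034). Insig1 was also called with the offset (adjusted p 0.024), and Srebf1 was not (0.11). Nr1h2, the sterol receptor LXR beta, had a log2 fold change of 0.26 ± 0.056 (adjusted p 0.048), 0.11 with the offset and then not called. Of genes shown beside these after their values were seen, Srebf2, which encodes SREBP-2, was at 407 and 418 CPM in the control libraries and 479 and 460.4 CPM in the morphine libraries (adjusted p 0.055, in DESeq2 0.0065), and Scap, its escort, at 100 and 106 CPM against 110.1 and 105 CPM (adjusted p 0.56). Abca1, a sterol exporter that LXR turns on, was lower in both morphine libraries, at 40.5 and 40.8 CPM against 33.9 and 36 CPM, without passing the test (adjusted p 0.09), and Abcg1 had overlapping groups.

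Fatty acid synthesis enzymes gave 7 of 21 called higher and 0 lower (median 0.12, with the offset 0.12 and 5 called). Fasn, fatty acid synthase, was at 637 and 634 CPM in the control libraries and 886 and 848 CPM in the morphine libraries (0.45 ± 0.042, adjusted p 7.0e-04). Acly, which makes cytosolic acetyl-CoA from citrate, was among the most abundant enzymes of these lists, at 1073 and 1091 CPM in the control libraries and 1295 and 1282 CPM in the morphine libraries (0.25 ± 0.039, adjusted p 0.016). The stearoyl-CoA desaturases rose together: Scd1 was at 202 and 197 CPM against 237 and 239 CPM and Scd2 at 654 and 642 CPM against 775 and 809.9 CPM, with adjusted p 0.026 and 0.012. All 4 genes were called with the offset as well, as was Fads2, a desaturase of polyunsaturated fatty acids (53.8 and 59.9 CPM against 76.1 and 75.6 CPM, adjusted p 0.014). Slc25a1, the mitochondrial citrate exporter, and Tecr, the last enzyme of the elongation cycle, had log2 fold changes of 0.40 ± 0.065 and 0.27 ± 0.049 and were not called with the offset (adjusted p 0.085 and 0.17). The 3 lists on sterols and fatty acids held 62 of the tested loci (0.354%) and 27 of the 118 members called higher (22.9%), and 22 of 55 with the offset. These lists were chosen with earlier results of these data known, so the shares are a description only. None of their loci was called lower. Without morphine replicate 1, Fasn alone of the 62 passed, and without morphine replicate 2 the fatty acid list held 4 calls.

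The 10 largest rises and 10 largest falls, among called members with a mean of at least 5 CPM and groups apart, were mixed in kind. Besides Mvd they held Aacs, which activates acetoacetate for lipid synthesis, at 51.6 and 54.1 CPM in the control libraries and 83.9 and 80.8 CPM in the morphine libraries (0.64 ± 0.057, adjusted p 6.2e-04). Aldoc, the aldolase of brain, was at 6.44 and 5.67 CPM in the control libraries and 11.7 and 10.3 CPM in the morphine libraries (0.86 ± 0.12, adjusted p 0.0099). The phosphatase gene Ppm1j was at 12.1 and 13.9 CPM against 21.3 and 19.8 CPM, the adaptor gene Stap2 at 5.39 and 4.52 CPM against 8.26 and 7.32 CPM, and 4930483K19Rik, whose locus overlaps that of Lss so that reads may be shared, at 8.3 and 8.19 CPM against 13.8 and 14.1 CPM. Of these, Stap2 was not called with the offset (adjusted p 0.12), nor was Mir682 (4.22 and 5.81 CPM against 8.78 and 7.85 CPM, 0.14), a locus named for a microRNA, which a poly(A) library does not measure in mature form. Their log2 fold changes were 0.65 and 0.72 without and 0.52 and 0.58 with the offset. A second locus named Ubb, 1 exon of 959 bp on chromosome 14 (46084027 to 46084985), was at 16.5 and 0.713 CPM in the control libraries and 84.8 and 35.4 CPM in the morphine libraries. The control libraries of this locus lay far apart and neither DESeq2 (adjusted p 0.28) nor the fit with the offset (0.078) called it, though the offset left its log2 fold change at 2.76 in place of 2.82. The multi-exon Ubb locus on chromosome 11 was at 551 and 558 CPM against 730 and 562 CPM and did not pass (adjusted p 0.18). Near-identical copies share reads, so the value of the locus on chromosome 14 is uncertain.

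Among the falls, D7Ertd143e, the transcript that spans the miR-290 cluster of mESCs, was at 13.4 and 13 CPM in the control libraries and 6.09 and 7.18 CPM in the morphine libraries (-0.98 ± 0.11, adjusted p 0.0022), and the offset left it at -0.97. Mir6236 on chromosome 9 was at 146 and 75.4 CPM in the control libraries and 53.8 and 48.2 CPM in the morphine libraries. AK144265, a locus named by a cDNA on chromosome 16, was at 134 and 68.9 CPM in the control libraries and 51.9 and 47.7 CPM in the morphine libraries. In both, the controls differed from each other by more than control replicate 2 differed from either morphine library, and the libraries stood in the same order for AK155692 (19.4 and 12.4 CPM against 9.49 and 7.1 CPM) and KX981576 (55.5 and 39.3 CPM against 31.4 and 28.1 CPM). The zinc finger gene Zfp994 (9.39 and 8.76 CPM against 5.06 and 6.57 CPM) and AK086914 on chromosome X (7.75 and 6.76 CPM against 3.44 and 4.8 CPM) were GC-poor and were not called with the offset, where their log2 fold changes were -0.43 in place of -0.64 and -0.63 in place of -0.81. Mir6236, AK144265, AK155692 and KX981576 were called with the offset. DESeq2 did not call Mir6236, AK144265 or KX981576 (adjusted p 0.098, 0.13 and 0.068) and gave AK155692, D7Ertd143e, Zfp994, AK086914 and Rpl30 no adjusted p. The loci of D7Ertd143e, KX981576 and Rpl30 overlap another, so their reads may be shared. The other 3 falls were Rpl30 and 2 loci of the mitochondrial chromosome, given below.

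Calls in the translation lists were 2 of 79 cytosolic ribosomal proteins, 1 of 50 translation factors and 0 of 20 tRNA synthetases. They were 1 of 54 ribosome biogenesis genes and 1 of 74 mitochondrial ribosomal proteins, against 1.56% of all tested members. Of 79 cytosolic ribosomal protein genes tested, 1 was called higher and 1 lower, with the same counts with the offset and a list median of 0.065, 0.015 with the offset. The SD of the list median between libraries of a group was 0.052, close to the median itself. The split varied with the setting: total counts gave 5 higher and 2 lower, and the edgeR fit without a count filter gave 20 and 5. DESeq2 called 11 higher and 0 lower, but it gave no adjusted p to Rpl30, the gene that edgeR called lower. The exact and the likelihood ratio test gave 4 and 3, named loci alone gave 6 and 4, and a length offset gave 1 and 3. Without control replicate 1 it was 8 and 3, without control replicate 2 it was 18 and 9, and without morphine replicate 2 it was 4 and 1. The summed level of the 79 was 30824 and 30321 CPM in the controls and 33088 and 31259 CPM after morphine. The called genes were Rps23, at 2.48 and 3.43 CPM in the control libraries and 115 and 25.4 CPM in the morphine libraries (4.55 ± 0.62, adjusted p 0.0099), and Rpl30, at 18.7 and 17.8 CPM in the control libraries and 8.82 and 8.49 CPM in the morphine libraries (-1.08 ± 0.089, adjusted p 4.6e-04). The morphine libraries of Rps23 lay far apart, and those of Rpl30 close together. Both loci were low for this class: per kilobase of exon they stood at 65.9 and 15.0 CPM, against a list median of 244.5 CPM, ranks 14 and 6 from the lowest of 79. These are means of all 4 libraries, and for Rps23 the mean rests largely on morphine replicate 1, so its controls stood lower. Ribosomal protein genes have many near-identical copies in the genome, between which reads can be split, so both values are uncertain. The other translation lists held single calls in edgeR: Eif4a2, an RNA helicase of cap-dependent initiation, was lower (382 and 382 CPM against 308 and 334 CPM, adjusted p 0.038), and Nhp2, a protein of H/ACA snoRNPs (318 and 335 CPM against 396 and 374 CPM, adjusted p 0.042), and Mrpl28, of the mitochondrial ribosome (82.7 and 91 CPM against 112 and 104 CPM, adjusted p 0.04), were higher. None of the 3 was called with the offset. DESeq2 called 1 higher and 5 lower among the translation factors, 2 and 6 among the ribosome biogenesis genes and 1 and 0 among the mitochondrial ribosomal proteins. The list medians were -0.011 for 50 translation factors, -0.018 for 54 ribosome biogenesis genes and 0.056 for 74 mitochondrial ribosomal proteins, and with the offset -0.024, 0.0055 and 0.034. Of 20 tRNA synthetases none was called by edgeR with or without the offset (6 at an unadjusted p under 0.05, 2 in DESeq2). The most abundant, Aars, was at 854 and 878 CPM against 897 and 846 CPM and Eprs at 693 and 705 CPM against 632 and 659 CPM.

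Of 138 splicing genes 1 was called higher and 4 lower, and the sign of their median depended on the offset (-0.038 without and 0.017 with it). Ttc14, a gene with tetratricopeptide repeats that is neither an SR protein nor a CLK kinase, was the call that was higher, and it stands in a list chosen with earlier results of these data known. It was at 47.3 and 46.3 CPM in the control libraries and 77.7 and 88.4 CPM in the morphine libraries (0.83 ± 0.067, adjusted p 4.6e-04). It is GC-poor (37.9%), and the offset raised its change to 1.06 (adjusted p 1.8e-06). Its locus overlaps another, so its reads may be shared. Srsf1, an SR protein, was lower, at 542 and 506 CPM against 442 and 459 CPM (adjusted p 0.048), as were the hnRNP-class proteins Hnrnph3 (55.5 and 54.8 CPM against 46.1 and 44 CPM), Taf15 (228 and 202 CPM against 179 and 177 CPM) and Syncrip (323 and 314 CPM against 265 and 281 CPM). With the offset none of these 4 was called. The changes of Hnrnph3 and Taf15 were then -0.26 and -0.24 in place of -0.29 and -0.27 (adjusted p 0.056 and 0.078), that of Srsf1 was -0.043 in place of -0.22, and that of Syncrip was 0.017 in place of -0.22. With the offset 2 further genes, named after their values were seen, were called, Hnrnph1 higher and Snrnp70 lower (adjusted p 0.041 and 0.029), whose unadjusted levels had been 479 and 456 CPM against 431 and 462 CPM and 337 and 336 CPM against 329 and 312 CPM. Of 74 core spliceosome genes none was called by edgeR without the offset (20 at an unadjusted p under 0.05, 4 in DESeq2). Prpf8, the centre of the U5 snRNP, was at 1103 and 1108 CPM against 1030 and 1045 CPM (adjusted p 0.21), and Sf3b1, which reads the branch point, at 730.4 and 705 CPM against 596 and 652 CPM (adjusted p 0.06, in DESeq2 0.0072). The SR and CLK list had a median of -0.05 without and 0.076 with the offset. The kinases Clk1 (83 and 84.2 CPM against 75.9 and 78.4 CPM) and Clk4 (38.7 and 38.3 CPM against 38.1 and 40.9 CPM) did not pass (adjusted p 0.25 and 0.79). Without control replicate 2 the splicing calls numbered 19, without control replicate 1 they numbered 2 and without morphine replicate 1 only Ttc14 passed.

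Chromatin genes held more falls than rises. Of 446 genes in 9 lists 20 were called lower and 1 higher, with a median of -0.07 (-0.042 with the offset, when 1 was called lower and 0 higher). Cohesin, condensin and SMC proteins, which shape chromosomes, led with 5 of 28 lower and a median of -0.20 (SD between libraries of a group 0.059). Smc3, a cohesin subunit, was at 249 and 244 CPM in the control libraries and 209 and 217 CPM in the morphine libraries (-0.21 ± 0.046, adjusted p 0.048). Wapl, which releases cohesin from DNA, was at 384 and 363 CPM in the control libraries and 291 and 324 CPM in the morphine libraries (-0.28 ± 0.055, adjusted p 0.04). Both morphine libraries lay below both controls for each, and the same held for Smc4 of condensin, Smchd1 and Pds5b (log2 fold changes -0.25 ± 0.052, -0.27 ± 0.053 and -0.28 ± 0.062). The list is GC-poor, with a median of 41.7%, and with the offset its median was -0.051 and 0 of 28 were called. Without morphine replicate 1 the median was -0.13 with 0 called, and without control replicate 2 there were 15 calls. Of 191 numbered zinc finger genes tested, many of which are repressors with a KRAB domain, 10 were called lower (median -0.13, GC content 44.3%), among them Zfp934 (18.1 and 18.2 CPM against 12.9 and 14 CPM), Zfp638 (298 and 298 CPM against 229 and 259 CPM), Zfp936 (31.7 and 31.2 CPM against 21 and 25.5 CPM), Zfp758 (6.81 and 7.1 CPM against 4.55 and 4.72 CPM) and Zfp990 (146 and 139 CPM against 95.3 and 121 CPM). Zfp990 was not called in DESeq2 (adjusted p 0.11). The SD of the median of -0.13 between libraries of a group was 0.047. With the offset none of the 191 was called and the median was -0.053. Without morphine replicate 1 there were 0 calls, and without control replicate 2 there were 2 higher and 39 lower.

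Of the enzymes that write and read chromatin marks, Tet1, which oxidises 5-methylcytosine, was at 725 and 630.3 CPM in the control libraries and 489.7 and 569 CPM in the morphine libraries (-0.36 ± 0.073, adjusted p 0.042, in DESeq2 0.094). Crebbp, the CBP acetyltransferase, was at 68.9 and 59.5 CPM in the control libraries and 49.7 and 50.9 CPM in the morphine libraries (-0.35 ± 0.071, adjusted p 0.042). It was the 1 chromatin gene still called with the offset (-0.39, adjusted p 0.03). Sirt1, a deacetylase, was at 249 and 239 CPM against 183 and 211 CPM (adjusted p 0.042) and Smarca5, the ISWI remodelling ATPase, at 322 and 304 CPM against 252 and 270.4 CPM (adjusted p 0.038). In the Polycomb list Epop, a PRC2-associated protein whose exons are 66.9% GC, was higher (259 and 274 CPM against 369.9 and 327 CPM, adjusted p 0.014) and Mga, of a PRC1 variant, lower (256 and 245 CPM against 196 and 221 CPM, adjusted p 0.048). With the offset the adjusted p was 0.11, 0.088, 0.24, 0.058 and 0.39 for Tet1, Sirt1, Smarca5, Epop and Mga. Neither the 39 histone methyltransferases and subunits of their complexes nor the 23 demethylases and Jumonji proteins held a call in edgeR (medians -0.0075 and -0.07, with the offset -0.031 and -0.019, when neither held a call). Without 1 library the medians ran from -0.027 to -0.0060 for the former and from -0.099 to -0.037 for the latter. The former had 14 at an unadjusted p under 0.05, 2 in DESeq2, and the latter 11 at an unadjusted p under 0.05, 4 in DESeq2. The most abundant were the complex subunits Ash2l at 681 and 686 CPM against 652 and 653 CPM and Hcfc1 at 635 and 628 CPM against 623 and 636 CPM, and Jarid2, a Jumonji protein of PRC2 without demethylase activity, at 606 and 579 CPM against 544 and 539.5 CPM and Kdm5b at 582 and 563 CPM against 504 and 522 CPM, the last called in DESeq2 (adjusted p 0.024). Only 7 of 65 clustered histone genes were members, and poly(A) selection leaves out most of these mRNAs. Of the 7 none was called, Hist1h2bc being at 4.91 and 5.88 CPM against 5.85 and 5.44 CPM and Hist1h1c at 3.24 and 3.33 CPM against 3.04 and 2.91 CPM. Without morphine replicate 1 none of the 446 chromatin genes was called, and without control replicate 2 there were 81.

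**Figure D5:**
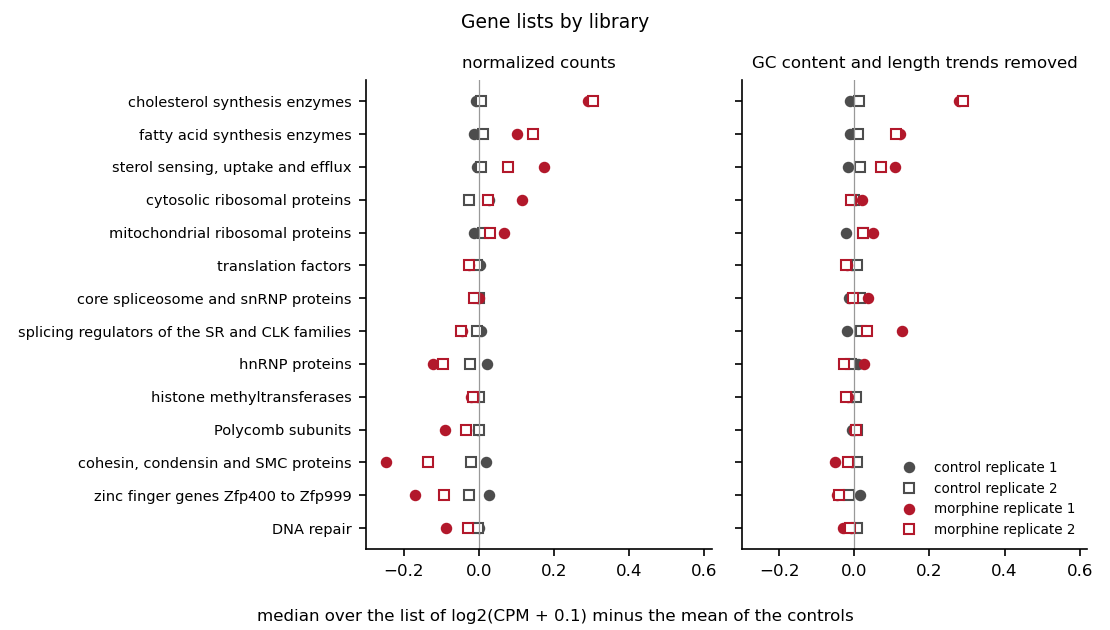
Median over the genes of a list of log2(CPM + 0.1) minus the mean of the 2 control libraries, for 14 lists and each of the 4 libraries, before (left) and after (right) the GC and length trends were removed; circles are replicate 1 and squares replicate 2, grey is control and red morphine. Both morphine libraries stay near 0.29 for cholesterol synthesis in both panels, while the cohesin list goes from -0.25 and -0.13 in the morphine libraries to -0.051 and -0.017, still below both controls.

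Called genes of the cell cycle and DNA repair lists were all lower. Of 67 DNA repair genes 6 were called lower and 0 higher (median -0.051, with the offset -0.022 and 2 called). Without morphine replicate 1 the median was -0.031 with 0 called, without morphine replicate 2 it was -0.088 with 4, and without control replicate 2 there were 9 calls. Atr, the kinase of the replication checkpoint, was at 145 and 137 CPM in the control libraries and 101 and 114 CPM in the morphine libraries (-0.39 ± 0.061, adjusted p 0.017). Brca2, a protein of homologous recombination, was at 247 and 236 CPM in the control libraries and 185 and 201 CPM in the morphine libraries (-0.32 ± 0.053, adjusted p 0.02), and Bard1, the partner of BRCA1, at 106 and 97.5 CPM against 79.5 and 79 CPM (adjusted p 0.019). Of these 3 only Bard1 was called with the offset (adjusted p 0.039). Among 45 mitosis genes 4 were lower, led by Knl1 of the kinetochore (61.4 and 57 CPM against 40.4 and 47.3 CPM, adjusted p 0.026), Cenpf (267 and 244 CPM against 203 and 215 CPM, 0.034) and Kif15 (123 and 121 CPM against 101 and 104 CPM, 0.04). The centrosome list had 2 of 40 lower, Akap9 (60.2 and 54.5 CPM against 41 and 46.6 CPM) and Pcm1 (323 and 309.9 CPM against 249.8 and 279.7 CPM), and the DNA replication list 1 of 49, Pola1, the catalytic subunit of polymerase alpha (172 and 160.5 CPM against 132 and 142 CPM). None of these mitosis, centrosome and replication genes was called with the offset. The 36 cyclins, CDKs and inhibitors held no call in edgeR (8 at an unadjusted p under 0.05, 1 in DESeq2), with Cdk4 at 553 and 588 CPM against 626 and 604 CPM and Ccnd3 at 271 and 291 CPM against 316 and 305 CPM. Further falls stood in other lists: of 48 ubiquitin-specific proteases 3 were lower, Usp9x (696 and 608 CPM against 449 and 534 CPM, in DESeq2 adjusted p 0.072), Usp37 (141 and 126 CPM against 102 and 105 CPM) and Usp14 (216 and 204 CPM against 163 and 180.2 CPM). Of 28 nuclear pore genes 1 was lower, Ranbp2 (453 and 410.0 CPM against 322 and 376 CPM, in DESeq2 adjusted p 0.11), and of 62 Mediator and general transcription factor genes 2, Med13 (120.2 and 113 CPM against 84.6 and 99.5 CPM) and Taf15. Of 32 secretory coat genes 1 was lower, the clathrin heavy chain Cltc (956 and 897 CPM against 753 and 824 CPM). None of these genes was called with the offset, where the changes ranged from -0.075 for Cltc to -0.24 for Taf15.

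The long noncoding RNA list held 7 calls of 34, 1 higher and 6 lower, and with the offset 2 higher and 2 lower. Neat1, the scaffold of paraspeckles, was at 51.8 and 44.4 CPM in the control libraries and 30.5 and 33.3 CPM in the morphine libraries (-0.59 ± 0.08, adjusted p 0.0099) and was called with the offset as well (-0.48, adjusted p 0.011), as was D7Ertd143e. Snhg1, a snoRNA host, was at 129.7 and 123 CPM against 96.7 and 104 CPM (adjusted p 0.021), and 0.07 with the offset. The rises, named after their values were seen, were Mirg (22.6 and 24.2 CPM against 31.4 and 28.9 CPM, adjusted p 0.042, with the offset 0.05) and, with the offset alone, Rian (296 and 297 CPM against 293 and 315 CPM, adjusted p 0.71, with the offset 0.016), both transcripts of an imprinted noncoding cluster.

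Of 80 nuclear-encoded respiratory chain genes 1 was called, Cox6a1 (222 and 231 CPM against 278 and 258 CPM, adjusted p 0.045), which was not called with the offset (adjusted p 0.42), with a list median of 0.06 and 0.011 with the offset. Without 1 library the list median ran from 0.032 to 0.090. Aldoc was the 1 call among 25 glycolysis genes, with and without the offset. The 9 member loci of the mitochondrial chromosome, gathered by position after their values were seen, summed to 18060 and 15984 CPM in the controls and 13288 and 14957 CPM after morphine. The morphine libraries lay below both controls, and the controls also lay apart from each other. Of the 9, 3 were called lower with and without the offset. They include GU332589 (M:1094-2681, listed on the minus strand across the large ribosomal RNA), at 365 and 290.2 CPM in the control libraries and 200.0 and 202 CPM in the morphine libraries, and AK140265 (M:70-852, across the small ribosomal RNA), at 134 and 100.3 CPM in the control libraries and 76.3 and 74.7 CPM in the morphine libraries. Their log2 fold changes were -0.71 ± 0.082 and -0.63 ± 0.10 (adjusted p 0.0035 and 0.02). GU332589 overlaps another locus, and whether the counting used strand is not stated.

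Lists on stress held no call without the offset, and the sign of each of their medians turned with it. In edgeR none of 31 genes of the integrated stress response (median 0.052, with the offset -0.011, 7 at an unadjusted p under 0.05, 1 in DESeq2) and none of 27 genes of the unfolded protein response (median -0.018, with the offset 0.028, 6 at an unadjusted p under 0.05, 2 in DESeq2) was called. The same held for 23 heat shock genes (median -0.023, with the offset 0.011, 7 at an unadjusted p under 0.05, 3 in DESeq2), 34 oxidative stress genes (median 0.052, with the offset -0.0056, 11 at an unadjusted p under 0.05, 1 in DESeq2) and 23 p53 genes (median -0.0017, with the offset 0.017, 11 at an unadjusted p under 0.05, 2 in DESeq2). With the offset 1 gene of these lists was called, Mt2, a metallothionein of the oxidative stress list (368 and 333 CPM against 341 and 327 CPM, log2 fold change -0.07 ± 0.053, with the offset -0.21 and adjusted p 0.039), named after its values were seen. Among the most abundant, Asns, an ATF4 target, was at 524 and 540.4 CPM against 521 and 529 CPM, and Slc7a5, an amino acid transporter, at 566 and 586 CPM against 590.2 and 589 CPM. The chaperone Hsp90b1 was at 1019 and 1045 CPM against 973 and 1015 CPM, Canx at 1311 and 1224 CPM against 1102 and 1141 CPM, Hsp90ab1 at 7382 and 7608 CPM against 7780 and 7676 CPM and Hspa4 at 2094 and 2050 CPM against 1814 and 1930 CPM. Tkt was at 908 and 971 CPM against 1035 and 1006 CPM, Ftl1 at 823 and 901 CPM against 886 and 875 CPM, Trp53 at 403 and 411 CPM against 441 and 416 CPM and Ccng1 at 635 and 631 CPM against 589 and 609 CPM. None of these abundant genes passed in edgeR. DESeq2 called Canx and Hspa4 lower (adjusted p 0.012 and 0.031). The 36 proteasome genes (10 at an unadjusted p under 0.05, 0 in DESeq2) held no call, with Psmd1 at 508 and 508 CPM against 458 and 489.7 CPM and Psmd2 at 458 and 470.5 CPM against 473 and 472 CPM. Nor did the 39 lysosomal genes (13 at an unadjusted p under 0.05, 3 in DESeq2), with Lamp1 at 1016 and 1036 CPM against 1021 and 1019 CPM and Psap at 474 and 484 CPM against 519 and 508 CPM. With the offset Ctsc, the protease cathepsin C, named after its values were seen, was called higher (27.5 and 29.6 CPM against 32.7 and 33.3 CPM, adjusted p 0.12, with the offset 0.033).

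The lists of cell identity and signalling held at most 2 calls each in edgeR. Of 29 naive pluripotency genes 2 were higher, Klf2, a Kruppel-like factor of the naive state (149 and 143 CPM against 188 and 179 CPM, adjusted p 0.015), and Lefty1, a Nodal antagonist (34.8 and 35.4 CPM against 47 and 41.3 CPM, adjusted p 0.048), neither called with the offset. DESeq2 called 5 of the 29 higher and 1 lower, and 12 stood at an unadjusted p under 0.05 in edgeR. The core factors, shown after their values were seen, did not pass in edgeR: Pou5f1 was at 1183 and 1272 CPM against 1507 and 1370 CPM (adjusted p 0.052, in DESeq2 0.003), Sox2 at 257 and 227 CPM against 235 and 232 CPM (0.67) and Nanog at 439 and 434 CPM against 396 and 409.8 CPM (0.16). Bmp4 was the 1 call of 22 lineage genes (68.3 and 71.5 CPM against 87.8 and 85.4 CPM, adjusted p 0.026, with the offset 0.039). Of 17 ERK target genes 2 were higher, the ETS factor Etv4 (181 and 185 CPM against 216 and 209 CPM, adjusted p 0.048) and Myc (47.3 and 47.3 CPM against 57.6 and 55.5 CPM, adjusted p 0.05), and neither was called with the offset. Creb1, the cyclic AMP response factor, was the 1 call of 28 genes downstream of opioid receptors (43.5 and 42 CPM against 33 and 34.1 CPM, adjusted p 0.027, with the offset 0.28). DESeq2 called 2 of the 28 higher and 1 lower. The 7 tested genes of the list of opioid receptors, ligands and related symbols held no call in edgeR (0 at an unadjusted p under 0.05, 0 in DESeq2). The most abundant were Ogfr, the opioid growth factor receptor, at 43.3 and 44.4 CPM against 48.8 and 45.1 CPM, and Ogfod1, a ribosomal oxygenase that shares only part of its name with the others, at 75.8 and 75.9 CPM against 72.9 and 72.3 CPM. No call in edgeR stood among 13 RNA polymerase II subunits (4 at an unadjusted p under 0.05, 2 in DESeq2), with Polr2a at 880.2 and 880.2 CPM against 859 and 861 CPM and Polr2b at 359 and 348 CPM against 329 and 334 CPM. Nor did one stand among 11 Wnt targets (1 at an unadjusted p under 0.05, 0 in DESeq2), with Ccnd1 at 137 and 128 CPM against 128 and 126 CPM and Tcf7 at 69.5 and 70.6 CPM against 74.2 and 70.6 CPM. The 15 2-cell-like genes (5 at an unadjusted p under 0.05, 1 in DESeq2) had Eif1a at 189 and 183 CPM against 166 and 177 CPM and Zfp809 at 144 and 133 CPM against 117 and 121 CPM (in DESeq2 adjusted p 0.025), and the 16 mesenchymal genes (2 at an unadjusted p under 0.05, 0 in DESeq2) had Fn1 at 1624 and 1618 CPM against 1562 and 1559 CPM and Sparc at 1245 and 1273 CPM against 1352 and 1341 CPM, all without a call in edgeR.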

How the data were processed

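Poly(A) RNA of 2 control and 2 morphine-treated samples was sequenced in stranded libraries. The authors aligned the reads to mm10 with HISAT2 2.1.0, assembled loci with StringTie 1.3.6 and deposited raw counts per locus from featureCounts 1.6.4. The strand setting and the treatment of reads with several alignments are not given in the sources used here, so loci with near-identical copies and overlapping loci (3510 of the members) are uncertain. A name that a spreadsheet had turned into a number was restored by position in GENCODE for 16 of 21 members. The deposited peak lists of the ChIP-Seq libraries were not used.

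Counts were filtered with filterByExpr, TMM-normalized and tested over all 20350 loci past the filter with edgeR 4.0.16 (R 4.3.3, quasi-likelihood test, Benjamini-Hochberg adjustment, FDR of 0.05). Log2 fold changes are those of the fit. Exonic GC content was read from GRCm38.p6, which has the coordinates of mm10. The offset was a natural spline with 5 degrees of freedom in GC content and in exon length, fitted per library. An exact permutation test of 2 against 2 libraries cannot go below p = 0.33. A symbol with several loci was read at the locus with most counts. DESeq2 1.42.0 left 11474 tested members without an adjusted p, and these were not counted. The fits were also run on simulated counts, and the outcome is not given here. Scripts ran in Python 3.11.15.

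The members and the gene lists were chosen with earlier results of these data known. The genes named are the 10 largest rises and 10 largest falls among called members with groups apart and at least 5 CPM, the called genes of each list by lowest p (up to 6 in sterol, translation, splicing and chromatin lists, up to 3 in others, and the 2 most abundant where none was called), the called cholesterol enzymes, and the opioid receptors. Of these genes 4 are not reported here. Others are marked in the text. The list of mitochondrially encoded genes matched no name in the table. The alternatives were edgeR's exact and likelihood ratio tests, DESeq2, RLE and total-count scaling, 3 other count filters, the replicate number as a block, GC and length offsets, an FDR of 0.01, and leaving out each library.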

Additional observations from a re-analysis of the deposited data

How the results depend on the processing

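The 15 calls among cholesterol synthesis enzymes changed least with the processing: with all 4 libraries and an FDR of 0.05 every alternative gave 14 to 17, all higher, and leaving out 1 library gave 0 to 15, with 0 without morphine replicate 1. An FDR of 0.01 left 6. Their median log2 fold change was 0.31 with total counts, 0.30 with a length offset, and 0.29 to 0.30 without 1 library. The 274 calls over all members became 694 with the exact test, 728 with the likelihood ratio test, 641 with DESeq2, 463 with total counts, 1434 without a count filter, 984 with named loci only, 81 with the GC and length offset, 94 with the GC offset, 23 at an FDR of 0.01, and 6 to 1362 without 1 library. The 2 ribosomal protein calls became 7 with the exact test, with the likelihood ratio test and with total counts, 11 with DESeq2, 25 without a count filter, 10 with named loci only, 4 with the length offset, and 2 to 27 without 1 library, and their median ran from 0.02 to 0.11 without 1 library. The 21 chromatin calls became 59 with the exact and the likelihood ratio test, 49 with DESeq2, 92 without a count filter, 75 with named loci only, 1 with the GC and length offset, 2 with the GC offset, 13 with the length offset, 0 at an FDR of 0.01, and 0 to 81 without 1 library. The chromatin median was -0.042 with the GC and length offset, -0.045 with the length offset, and -0.092 to -0.056 without 1 library. The 5 splicing calls became 9 with the exact and the likelihood ratio test, 14 with DESeq2, 24 without a count filter, 16 with named loci only, 3 with the GC and length offset, 2 with the GC offset, 1 at an FDR of 0.01, and 1 to 19 without 1 library. The splicing median was -0.018 with total counts, 0.017 with the GC and length offset, 0.018 with the GC offset, -0.030 with the length offset, and -0.040 to -0.030 without 1 library. Spearman's rho with GC content was 0.40 to 0.54 without 1 library, and rho with exon length -0.22 to -0.15. With the GC and length offset 16 of the named genes changed sign, and 2 of these were called without or with it, Syncrip (0.017, also 0.017 with the replicate block) and Hnrnph1 (0.17, also 0.17 with the block).

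The labels name no shared batch and do not say whether the replicate numbers pair the libraries. The correlation of the deviations of same-numbered libraries was 0.026, which cannot show how the cultures were handled. With the replicate block the calls were 944 over all members, 15 among cholesterol enzymes, 14 among ribosomal proteins, 71 among chromatin genes and 10 among splicing genes. With the block and the GC and length offset together they were 269, 17, 9, 6 and 6, with medians of -0.042 for chromatin and 0.017 for splicing genes. The cause of these differences was not tested. Counting depth limits the opioid receptors, and 2 libraries a group limit every comparison.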
